A study of Mus musculus with 6 samples.

Results

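The genes described here encode proteins of the postsynaptic scaffold and of synaptic adhesion: 29 listed genes, of 18193 genes with a probe of their own on the array. They were chosen by symbol, and the probe of highest mean signal over all arrays stood for each gene, counting only probes annotated to 1 gene. Of the 29, Shank2 was not analysed here for lack of such a probe, and Dlgap2, a scaffold protein of the SAPAP family, lay below the signal filter of 4.70 (log2). The other 27 genes were tested.

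RNA came from brain tissue, cerebellum by the series title, of 3 Gb5-deficient (Gb5 KO) mice and 3 wild-type (WT) mice. Each sample was hybridised to 1 single-colour Affymetrix array. KO arrays carry the numbers 4, 5 and 6 and WT arrays 1, 2 and 3. The labels describe littermates matched for age and sex and give neither an age nor the deleted part of the gene. Gb5 is a neuronal beta subunit of G proteins, the product of Gnb5, and pairs with RGS proteins, which shorten signalling by Gi/o-coupled receptors.

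At an excitatory synapse, MAGUK proteins (the Dlg genes) hold receptors beneath the membrane and bind SAPAP proteins (Dlgap), which in turn bind Shank and Homer and so reach the actin cytoskeleton and internal calcium stores. Neurexins on the presynaptic side bind neuroligins and LRRTM proteins on the postsynaptic side, and gephyrin is the scaffold of inhibitory synapses. In the cerebellum, excitatory synapses include the parallel fibre and climbing fibre synapses of Purkinje cells and the mossy fibre synapses of granule cells.

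No scaffold or adhesion gene differed between genotypes by the test across all genes. Of 27 genes, 0 rose and 0 fell at an adjusted p of 0.05 (limma with Benjamini-Hochberg adjustment over 14075 genes), where 0.0355% of all genes, 5 in number, did (0.0071% higher in KO and 0.0284% lower). At an unadjusted p under 0.05 there was 1 member, Dlgap4, against 8.56% of all genes tested. The smallest adjusted p of any member, that of Dlgap4, was 0.571. The difference, KO minus WT on the log2 scale, was positive in 16 members and negative in 11, with a median of 0.03, beside a median of 0.03 over all genes tested. It was smaller than 0.1 in size in 18 members, between 0.1 and 0.2 in 7 and above 0.2 in 2, Dlg4 and Dlgap4.

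These values bound the size of a difference on the brightest probe of each gene. For 25 of the 27 members the 95% interval lay within a 1.5-fold change in either direction, where 84.9% of all genes did. The exceptions were Dlg4 and Dlgap4. Shank1, with an interval of -0.21 to 0.36, counted among the 25. Its probe lay just above the filter, at 4.87 in WT, and so dim a probe bounds a difference little. For all 27 tested members the interval on that probe lay within a 2-fold change, as for 98.4% of all genes. The bound did not hold for every probe. Over all 77 probes of the members, 81.8% had an interval within a 1.5-fold change, beside 83.5% of all probes. The interval of a less bright Dlgap1 probe, 0.17 to 1.645, went beyond a 2-fold change. The median SD within a genotype was 0.11 in the members and 0.14 over all genes tested. The members' probes were also brighter, with a median WT signal of 10.45 against 8.90 over all genes tested. RNA from a whole tissue cannot separate a change in the number of cells of a type from a change in RNA per cell.

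**Figure D1:**
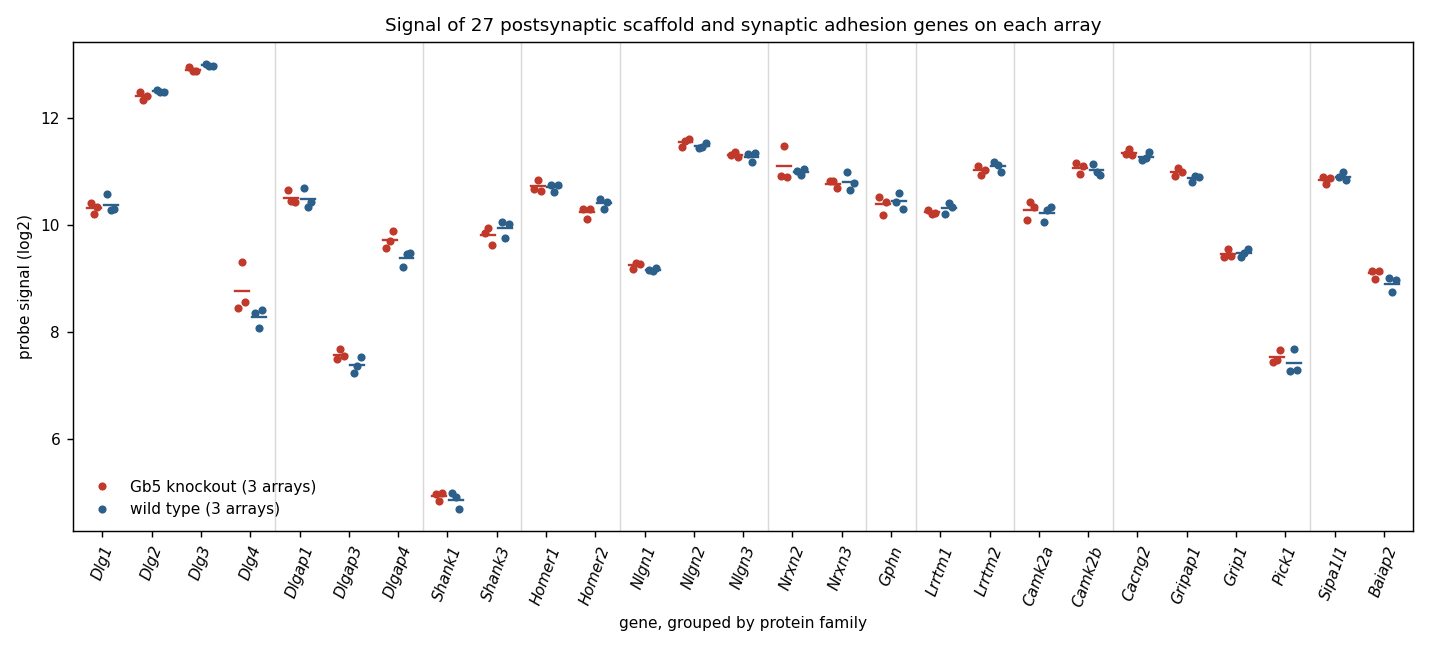
Signal (log2) of the 27 tested genes on each array, grouped by protein family, with KO arrays in red left of WT arrays in blue; each point is 1 array and each bar a mean of 3. Shank1 is the dimmest at 4.94 in KO and 4.87 in WT, Dlg3 the brightest at 12.90 in KO and 12.99 in WT, and Dlg4 and Nrxn2 each have 1 KO array well above the rest.

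The genotype labels were borne out by Gnb5, which read 3.65, 3.36 and 2.96 on the KO arrays and 8.80, 8.51 and 8.70 on the WT arrays (log2 fold change -5.35, SE 0.18; limma adjusted p = 4.38e-06). The mean signal of 6 Purkinje cell markers was 11.19 to 11.48 on the KO arrays and 11.25 to 11.38 on the WT arrays. They ran from Itpka (7.72 in KO and 7.54 in WT) to Calb1 (12.95 in KO and 12.98 in WT). For 7 granule cell markers the mean was 11.28 to 11.70 on the KO arrays and 11.38 to 11.61 on the WT arrays. These ran from Grin2c (9.45 in KO and 8.94 in WT) to Zic1 (12.77 in KO and 12.84 in WT). Of the 7, 3 were higher in KO and 4 lower. Of 10 forebrain markers, 8 were on the array and 7 above the filter. The mean signal of the 8 was 7.47 to 7.50 on the KO arrays and 7.40 to 7.52 on the WT arrays. The forebrain markers ran from Emx1 (4.48 in KO and 4.58 in WT, below the filter) to Bcl11b (10.71 in KO and 10.68 in WT). Not all were dim. Lists of other tissue differed between genotypes. The mean of 3 blood markers was 7.85 to 8.21 on the KO arrays and 8.84 to 9.89 on the WT arrays. That of 5 meningeal markers was 9.33 to 9.68 in KO and 9.83 to 10.03 in WT. Of 6 myelinating oligodendrocyte markers, 4 had every KO array below every WT array, beside 4.82% of all genes, and 2 were higher in KO. The part of any of these lists in the members' values was not tested. KO array 6 stood apart: a Y-linked Eif2s3y probe read 11.80 there, against 3.19 to 3.43 on the others, and a Xist probe 6.64, against 11.11 to 11.35. This pattern of male tissue goes against the matching of sex in the labels. Its Gapdh 3′ minus 5′ control difference was 1.58, against 1.07 to 1.14 on the other KO arrays and 1.03 to 1.04 on the WT arrays.

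In 4 members the 3 arrays of one genotype lay apart from the 3 of the other, a share of 14.8%, beside 14.9% of all genes. Dlg4 and Dlgap4 had KO above WT, as 10.1% of all genes had, and Dlg3 and Homer2 had KO below WT, as 4.82% had. The 100 bases before the outermost annotated start are shown here for these 4 genes, and for Homer1, 1 of whose probes had the smallest p of all member probes. They are RefSeq sequences of build GRCm38.p6, written along the transcribed strand. Capitals mark the GC box GGGCGG and the core TGACGT of the cAMP response element, on either strand.
Dlg3, chrX:100774395-100774494, plus strand: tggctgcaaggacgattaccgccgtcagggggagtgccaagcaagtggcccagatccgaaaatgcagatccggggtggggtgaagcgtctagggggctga
Dlg4, chr11:70017103-70017202, plus strand: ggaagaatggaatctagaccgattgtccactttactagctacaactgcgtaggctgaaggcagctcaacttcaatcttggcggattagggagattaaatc
Dlgap4, chr2:156720865-156720964, plus strand: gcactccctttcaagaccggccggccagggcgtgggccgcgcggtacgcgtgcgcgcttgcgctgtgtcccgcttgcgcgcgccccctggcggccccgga
Homer1, chr13:93303657-93303756, plus strand: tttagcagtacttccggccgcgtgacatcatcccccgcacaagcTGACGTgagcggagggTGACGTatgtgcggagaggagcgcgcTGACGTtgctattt
Homer2, chr7:81706926-81707025, minus strand: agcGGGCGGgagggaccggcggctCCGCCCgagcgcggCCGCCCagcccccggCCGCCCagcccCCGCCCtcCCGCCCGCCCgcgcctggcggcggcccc

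RefSeq promoter windows were found for 22 of the 29 genes, 40 windows in all, and the 250 bases before each start were searched. The GC box stood in 14 of the 40 windows (35.0%), beside 32.7% of all 32851 windows. The TATA motif TATAAA stood in 7 (17.5%), beside 12.4%, and the full element TGACGTCA, which contains TGACGT, in 0 of 40, beside 1.55%. The core TGACGT, searched after the Homer1 sequence had been seen, stood in 1 of the 40 windows (2.5%), beside 6.47% of all windows. That window, of Homer1, held 3 copies, as 0.152% of all windows held 3 or more. The cut of 3 was the count of Homer1 itself, so this share does not measure how unusual Homer1 is. Homer1 is known as a gene whose short form is induced by neuronal activity. The part of these copies in the Homer1 values was not tested. The median GC content was 53.4% in the members' windows and 52.4% in all windows.

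The MAGUK genes encode the scaffold that anchors NMDA and AMPA receptors. Dlg4, the gene of a postsynaptic density scaffold, read 8.45, 9.31 and 8.56 on the KO arrays and 8.36, 8.08 and 8.42 on the WT arrays. KO array 5 was far above the other 5 arrays, and the lowest KO array was only just above the highest WT array. The difference was 0.49 (SE 0.22, 95% interval -0.01 to 0.98; limma adjusted p = 0.586), the largest of the 27 on the brightest probes. Without KO array 5 it was 0.22. With the probes of each gene averaged it was 0.12, below the averaged difference of Dlgap4 (0.21). A second Dlg4 probe above the filter gave the opposite sign, with 7.23, 7.42 and 6.98 in KO and 7.35, 7.10 and 7.54 in WT, a difference of -0.12.

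Dlg3, an X-linked MAGUK prominent early in synapse formation, read 12.95, 12.87 and 12.89 in KO and 13.01, 12.98 and 12.97 in WT. The groups did not overlap, yet the difference was small, -0.09 (SE 0.04, interval -0.19 to 0.01; limma adjusted p = 0.609), and was -0.08 without KO array 6. Dlg2 read 12.49, 12.35 and 12.41 in KO and 12.53, 12.49 and 12.48 in WT, with overlapping groups and a difference of -0.08, which was -0.05 without KO array 5. Dlg1, which also serves outside synapses at cell junctions, averaged 10.32 ± 0.11 in KO and 10.38 ± 0.16 in WT (SD, n = 3 each).

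SAPAP proteins link MAGUKs to Shank. The 3 tested members all had positive differences on their brightest probes, as 7985 of all 14075 genes had. Dlgap4 read 9.56, 9.70 and 9.89 in KO and 9.21, 9.45 and 9.48 in WT, so every KO array was above every WT array. Its difference was 0.34 (SE 0.12, interval 0.06 to 0.61; limma adjusted p = 0.571). KO array 6 was the highest, and without it the difference was 0.25. It was 0.25 without WT array 1, 0.41 without KO array 4 and 0.21 with its probes averaged. A second Dlgap4 probe of like brightness gave 9.19, 9.32 and 9.30 in KO and 9.09, 9.25 and 9.21 in WT, with overlap and a difference of 0.09.

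Dlgap3, known in mice for a role in corticostriatal circuits, read 7.49, 7.68 and 7.56 in KO and 7.23, 7.36 and 7.54 in WT, a difference of 0.20 (SE 0.12; limma adjusted p = 0.618) with overlap through WT array 3. It was 0.12 without WT array 1 and 0.11 with array weights. Dlgap1 averaged 10.52 ± 0.12 in KO and 10.49 ± 0.18 in WT (SD, n = 3 each) on its brightest probe. Its difference of 0.03 (SE 0.11) became -0.04 without WT array 2 or KO array 4. Dlgap2, below the filter and untested, read 4.04, 3.98 and 4.14 in KO and 3.92, 4.07 and 3.77 in WT.

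Shank proteins are the deeper layer of the scaffold. Shank3 read 9.85, 9.95 and 9.63 in KO and 10.05, 9.76 and 10.02 in WT. The groups overlapped, and the difference was -0.13 (SE 0.12; limma adjusted p = 0.715), which came to -0.04 without KO array 6, the lowest KO array, and to -0.08 without WT array 1. It was -0.22 without WT array 2, the lowest WT array, and -0.20 without KO array 5 and with array weights. Shank1 was dim in both genotypes, at 4.94 ± 0.09 in KO and 4.87 ± 0.15 in WT (SD, n = 3 each), just above the filter.

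Homer proteins tie Shank to metabotropic glutamate receptors and to receptors of internal calcium stores. Homer2 read 10.31, 10.11 and 10.31 in KO and 10.49, 10.31 and 10.43 in WT, a difference of -0.17 (SE 0.09, interval -0.38 to 0.05; limma adjusted p = 0.615). The highest KO array and the lowest WT array both rounded to 10.31, so the separation was narrow. The difference was -0.10 without KO array 5 and -0.03 with the probes averaged. A second Homer2 probe was separated in the opposite direction, with 8.85, 8.91 and 9.30 in KO and 8.71, 8.84 and 8.77 in WT, a difference of 0.24. KO array 6 was the highest on that probe. Its separation was also narrow, since KO array 4 and WT array 2 differed only in the third decimal.

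Homer1 was represented by a probe that read 10.68, 10.84 and 10.64 in KO and 10.76, 10.63 and 10.76 in WT, a difference of 0.01. Its other 4 probes above the filter had differences of -0.17, -0.56, -0.14 and 0.12. The probe at -0.56 read 8.19, 7.73 and 8.01 in KO and 8.74, 8.51 and 8.37 in WT. All 3 KO arrays were below all 3 WT arrays, the unadjusted limma p was 0.00508 and the adjusted p over 45037 probes was 0.530. Of the 77 probes of the 28 members this was the smallest p, and 0 of the 77 passed, where 0.0222% of all probes did. The annotation used does not say which Homer1 transcript a probe reads. Of 11 listed activity-induced genes, 8 were above the filter, 5 of them higher in KO and 3 lower. The largest increase was that of Nr4a1 (7.24 in KO and 6.61 in WT). The largest decrease was that of Egr3 (5.99 in KO and 6.21 in WT). Fos was at 9.63 in KO and 9.30 in WT, Egr1 at 11.59 in KO and 11.47 in WT, and Arc at 7.53 in KO and 7.62 in WT. Their part in the Homer1 values was not tested.

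**Figure D2:**
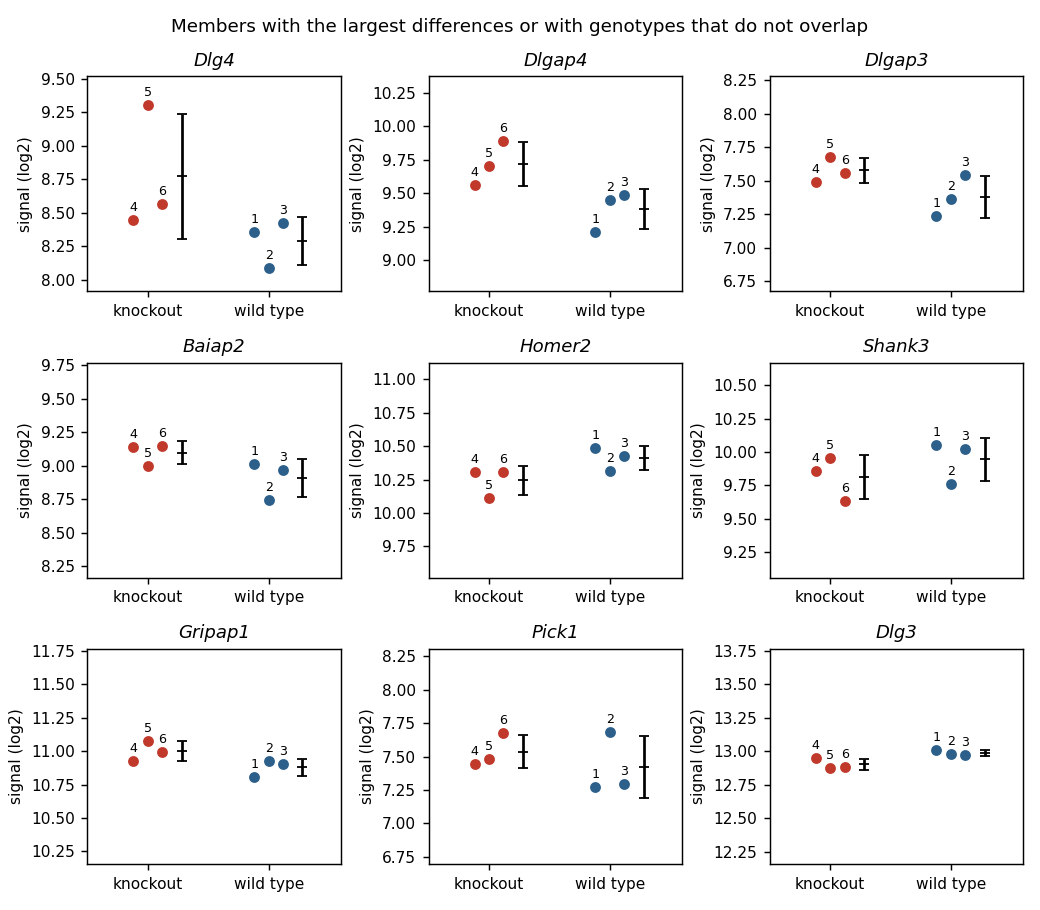
Signal (log2) on each array for the 9 members with the largest differences or with genotypes that do not overlap, KO left of WT; numbers are array numbers and black bars give the mean ± SD of 3 arrays. All panels span the same range. KO array 5 stands at 9.31 in Dlg4, and Dlg3 varies least.

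On the adhesion side, neuroligins are the postsynaptic partners of neurexins. Nlgn2, the neuroligin of inhibitory synapses, averaged 11.55 ± 0.08 in KO and 11.48 ± 0.05 in WT (SD, n = 3 each). Nlgn1, mainly of excitatory synapses, averaged 9.25 ± 0.06 in KO and 9.17 ± 0.03 in WT (SD, n = 3 each). Nlgn3, X-linked and found at both kinds of synapse, averaged 11.32 ± 0.04 in KO and 11.28 ± 0.09 in WT (SD, n = 3 each). The 3 differences lay between 0.03 and 0.08, groups overlapped in each, and the widest interval reached from -0.13 to 0.28, for Nlgn1. The difference of Nlgn3 was 0.05 without KO array 6.

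A dimmer Nlgn3 probe behaved unlike the bright one. It read 7.52, 8.94 and 7.29 in KO and 8.30, 7.35 and 8.22 in WT. Arrays of the same genotype were spread widely, with KO array 5 the highest and KO array 6 the lowest of the 6. The difference was -0.04 (SE 0.42), and its interval from -0.98 to 0.91 was far wider than that of the bright probe.

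Nrxn2, a presynaptic organiser, read 10.91, 11.49 and 10.90 in KO and 11.01, 10.93 and 11.05 in WT. As in Dlg4, KO array 5 was high and the other KO arrays lay close to WT. The difference of 0.10 became -0.09 without KO array 5 and 0.20 without KO array 4 or KO array 6. Nrxn3 averaged 10.78 ± 0.08 in KO and 10.81 ± 0.17 in WT (SD, n = 3 each), and its 5 probes had differences from -0.16 to 0.21.

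The leucine-rich proteins Lrrtm1 and Lrrtm2 bind neurexins at excitatory synapses. Lrrtm1 averaged 10.24 ± 0.04 in KO and 10.32 ± 0.11 in WT, and Lrrtm2 averaged 11.03 ± 0.08 in KO and 11.10 ± 0.09 in WT (SD, n = 3 each). All 3 probes of Lrrtm2 had negative differences, from -0.20 to -0.01. Those of Lrrtm1 were split, and a dim one read 6.86, 7.59 and 7.50 in KO and 6.86, 6.93 and 7.13 in WT, a difference of 0.34. Gphn, the gephyrin gene, averaged 10.39 ± 0.18 in KO and 10.45 ± 0.15 in WT (SD, n = 3 each), a difference of -0.06.

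The calcium-dependent kinase CaMKII is both an enzyme and a structural part of the postsynaptic density. Camk2b averaged 11.07 ± 0.11 in KO and 11.03 ± 0.11 in WT, and Camk2a averaged 10.29 ± 0.18 in KO and 10.23 ± 0.14 in WT (SD, n = 3 each). Differences were 0.04 and 0.07, and the interval of Camk2a reached from -0.21 to 0.34. Of the 6 probes of Camk2a, 4 lay below the filter.

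Among genes of AMPA receptor traffic, Cacng2 encodes stargazin, the subunit whose loss in mice removes AMPA receptors from cerebellar granule cells. It read 11.32, 11.43 and 11.32 in KO and 11.21, 11.25 and 11.36 in WT, a difference of 0.08 with overlap, which was 0.05 without KO array 5 or WT array 1 and 0.13 without WT array 3. Gripap1, an X-linked partner of the AMPA receptor scaffold Grip1, read 10.92, 11.07 and 10.99 in KO and 10.81, 10.93 and 10.90 in WT. Only WT array 2 reached into the KO range, and the difference was 0.12 (SE 0.08; limma adjusted p = 0.628), the same to 2 decimals without KO array 6.

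Grip1, which binds the tail of AMPA receptor subunits, averaged 9.46 ± 0.08 in KO and 9.47 ± 0.07 in WT (SD, n = 3 each). A second probe of it had a difference of 0.27 with overlap. Pick1, which binds the same tails during receptor removal, read 7.45, 7.48 and 7.68 in KO and 7.28, 7.69 and 7.30 in WT, a difference of 0.12. WT array 2 was the highest of all arrays for Pick1, and without it the difference was 0.25. It was 0.04 without WT array 1, 0.05 without WT array 3 or KO array 6 and 0.03 with its probes averaged.

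Neither gene of spine actin organisation passed the test. Baiap2, an adaptor that bends membranes and recruits actin regulators, read 9.14, 9.00 and 9.15 in KO and 9.02, 8.74 and 8.97 in WT, a difference of 0.19 (SE 0.11; limma adjusted p = 0.618) with overlap between KO array 5 and WT array 1. It was 0.11 without WT array 2 and 0.11 with its probes averaged. Of the 4 Baiap2 probes above the filter, 3 had positive differences and 1 a negative one, -0.22. A dim probe had every KO array above every WT array, with 5.17, 5.15 and 5.32 in KO and 5.05, 4.98 and 4.95 in WT. Sipa1l1, a GTPase-activating protein of spines, averaged 10.85 ± 0.07 in KO and 10.91 ± 0.07 in WT (SD, n = 3 each).

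**Figure D3:**
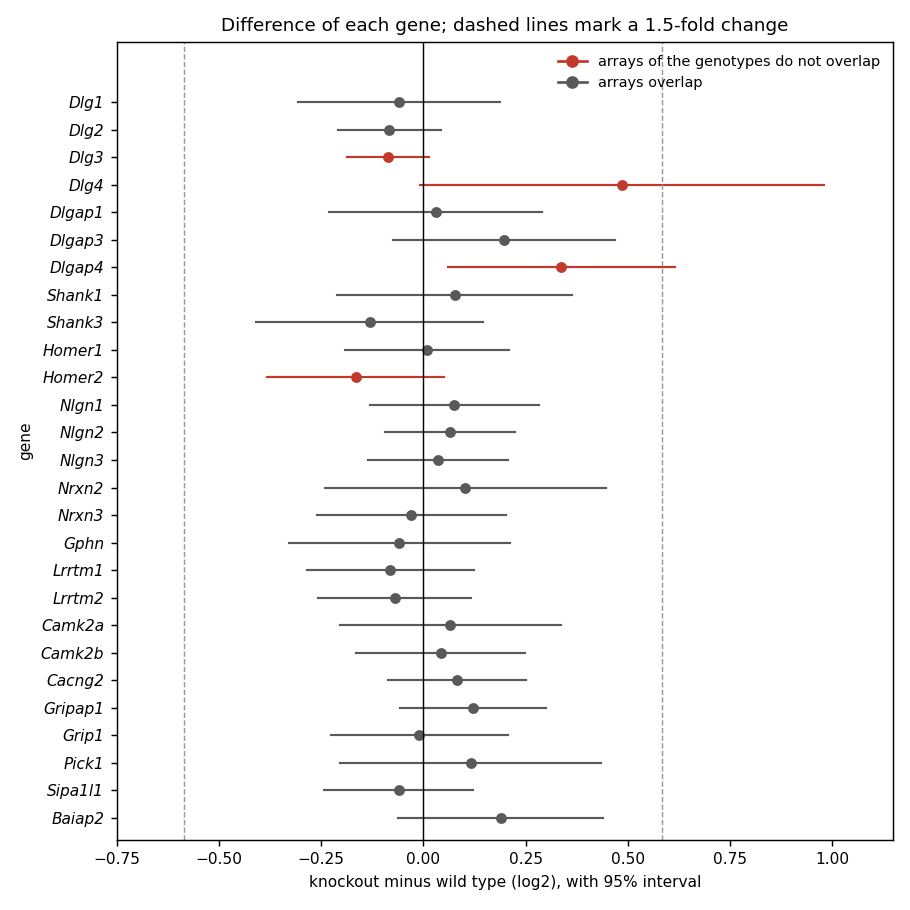
Difference of each of the 27 genes, KO minus WT (log2), with 95% intervals from limma; red marks the 4 genes whose genotypes do not overlap and dashed lines a 1.5-fold change. The interval of Dlgap4, 0.06 to 0.61, is the one that leaves out 0, and the intervals of Dlg4 and Dlgap4 cross the 1.5-fold line.

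Within families the order of signal was the same on all 6 arrays, in KO as in WT. It ran Dlg3, Dlg2, Dlg1, Dlg4 in the MAGUKs, with WT means of 12.99, 12.50, 10.38 and 8.29, and Dlgap1, Dlgap4, Dlgap3 in the SAPAPs, with WT means of 10.49, 9.38 and 7.38. Nlgn2 was followed by Nlgn3 and Nlgn1, Shank3 by Shank1, Homer1 by Homer2, Lrrtm2 by Lrrtm1 and Camk2b by Camk2a. Neighbours in these orders did not overlap over the WT arrays, except Nrxn2 and Nrxn3, 0.19 apart. This is an order of probe signal and not of RNA amount, since probes differ in how strongly they bind: the probes of Camk2a alone had KO means from 2.88 to 10.29 and WT means from 2.92 to 10.23.

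Probes of the same gene often differed in sign. Of 19 members with at least 2 probes above the filter, 15 had probes of both signs and 4, Dlgap4, Nrxn2, Lrrtm2 and Camk2a, had probes of 1 sign. The widest spread was in Dlgap1, whose 5 probes had differences from -0.11 to 0.91. The probe at 0.91 read 8.60, 9.46 and 8.13 in KO and 8.01, 7.34 and 8.12 in WT. KO array 5 was the highest, KO array 6 lay barely above WT array 3, and the adjusted p over all probes was 0.621. Over all 77 probes, 8 had genotypes that did not overlap, 10.4%, beside 13.6% of all probes.

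**Figure D4:**
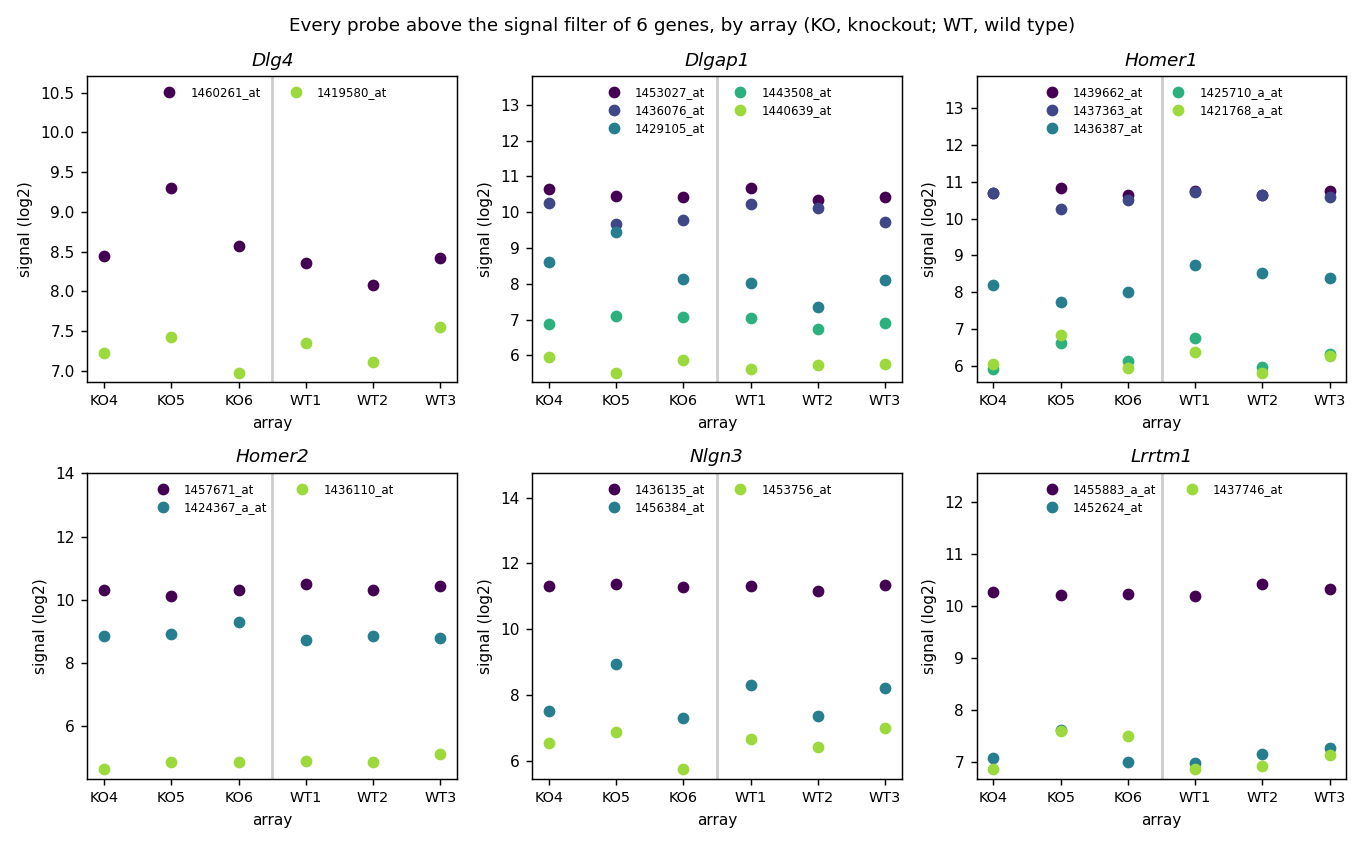
Signal (log2) of every probe above the filter for Dlg4, Dlgap1, Homer1, Homer2, Nlgn3 and Lrrtm1, with KO arrays left of WT arrays; each colour is 1 probe. The Homer1 probe near 8 is lower on the 3 KO arrays, and KO array 5 is the highest array for the upper Dlg4 probe, the Dlgap1 probe at 9.46 and the Nlgn3 probe at 8.94.

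Arrays differed in how often they were the highest or the lowest for a member. KO array 5 was the highest array for 10 of the 27 members and the lowest for 7, where it was the highest for 27.7% and the lowest for 19.6% of all genes. WT array 1 was the highest for 8 and the lowest for 9, where it was the highest for 15.8% and the lowest for 31.9% of all genes. KO array 4 was the highest for 1 member, Camk2b, and the lowest for 0, where it was the highest for 11.6% and the lowest for 8.58% of all genes. On KO array 5 the mean signal of 7 granule cell markers was 11.28, against 11.70 and 11.61 on the other KO arrays and 11.38 to 11.61 on the WT arrays, and that of 5 microglial markers was 8.40, against 7.95 and 8.19 on the other KO arrays and 8.12 to 8.18 on the WT arrays. All 12 of these markers were above the filter. Single markers differed: Grin2c of the granule list read 9.07 on KO array 5, above its 8.81 to 9.02 in WT. C1qa of the microglial list read 7.18, within its 7.14 to 7.38 in WT. On KO array 5 the mean was also the lowest of all arrays for 6 Purkinje cell markers (11.19). It was the lowest for 7 Bergmann glia and astrocyte markers too (11.74), though WT array 2 was close (11.75). For 4 endothelial markers, 3 of them above the filter, the mean was the highest on KO array 5 (8.97). Single markers of these lists differed as well. On KO array 5 Slc1a6 of the Purkinje list read 11.25, above its 11.10 to 11.24 in WT. Aldh1l1 of the glial list read 11.42, its highest value on any array. Cldn5 of the endothelial list read 10.59, within its 10.23 to 10.66 in WT. The part of these cell types in the values of KO array 5 was not tested.

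Other genes of the same synaptic functions gave a like picture. Of 90 tested genes for adhesion, scaffolding and receptor traffic outside the 29, 0 rose and 0 fell by limma's adjusted p, where 0.0355% of all genes passed. An unadjusted limma p under 0.05 was found for 6 (6.67%), beside 8.56% of all genes tested. The median difference of the 90 was -0.01, and 8 of them had genotypes that did not overlap, 8.89% beside 14.9% of all genes. The largest positive differences were those of the adhesion genes Lrfn4 (0.45) and Lrfn5 (0.34), of Clptm1 (0.35), which limits GABA-A receptor delivery, and of Mdga1 (0.33), an inhibitor of neuroligin binding. The largest negative ones were those of Slitrk4 (-0.56) and Slitrk6 (-0.26), ligands of presynaptic receptor phosphatases, of Lrrc4 (-0.38), a netrin-G ligand, and of the AMPA receptor auxiliary subunit Cacng7 (-0.25). Among these genes Mdga1 was just above the filter of 4.70, at 4.74 in WT. Slitrk6 (5.27 in WT) and Lrfn4 (5.40 in WT) were also dim. Slitrk4 read 9.68, 8.97 and 9.14 in KO and 9.95, 9.92 and 9.59 in WT, with overlap between KO array 4 and WT array 3. Lrrc4 read 9.37, 9.17 and 8.96 in KO and 9.76, 9.45 and 9.44 in WT, without overlap. Homer3, the Homer gene known for its level in Purkinje cells, averaged 10.11 ± 0.08 in KO and 9.97 ± 0.05 in WT (SD, n = 3 each), a difference of 0.14 that did not pass either.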

How the data were processed

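The authors deposited log2 signals, made with RMA and Partek per the submitters' processing notes; versions are not given in the sources used here. RMA equalises arrays, so a global change in RNA would not show. Detection calls and scanner files were not used here, so no scan batch could be tested. The platform annotation pairs 34945 probes with 1 gene, 932 with several and 9160 with none; 34741 symbols were updated by Entrez identifier (RefSeq, GRCm38.p6). Genes with a mean above the 30th percentile of probe means (4.70) were kept, 14075 of 18193. limma 3.58.1 in R 4.3.3 fitted KO minus WT with an intensity trend, two-sided, with Benjamini-Hochberg adjustment. A permutation of 3 against 3 arrays cannot give p below 0.1. The number of arrays limits precision: the median SE was 0.12. Groups came from the titles. The members, lists and tests were chosen with earlier results of these data known. Named in full were members that passed, that did not overlap or had the 8 largest differences; of the other synaptic genes, the 4 largest in each direction; Dlg2, Homer1, Nrxn2, Cacng2, Dlgap2, Homer3, the single markers and the second probes given by array were chosen after their values were seen. Alternatives covered filters, scaling, probe choice, variance models, array weights and each array left out.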

Additional observations from a re-analysis of the deposited data

How the results depend on the processing

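No member and none of the other synaptic genes passed under any of the 8 alternative settings or without any single array; the smallest adjusted p of a member was 0.256, for Dlgap4 without KO array 4. The members' median stayed positive, from 0.010 to 0.047 with single arrays left out and from 0.0069 to 0.052 otherwise. The count over all genes was 8 with no filter and 3 with a filter at the 50th percentile, and ran from 2 to 10 with single arrays left out. The median of the other synaptic genes, -0.010 as reported, was -0.0008 after a second quantile normalization, -0.036 with array medians subtracted and 0.0006 with the mean of a gene's probes, and ran from -0.017 to 0.017 with single arrays left out. Gnb5, dropped by the filter at the 50th percentile, passed in all others, at -2.99 with its probes averaged. In 14 of 27 members the sign held throughout these settings, and all reversals were of values that had not passed; the cause was not tested. With probes averaged, reversed values were 0.067 for Dlg1, 0.016 for Gphn, 0.13 for Grip1, -0.10 for Homer1, 0.12 for Lrrtm1, -0.0048 for Nlgn2, -0.10 for Nlgn3 and 0.042 for Nrxn3. With array weights they were 0.0015 for Dlg1, 0.031 for Gphn and -0.034 for Homer1, and with array medians subtracted -0.017 for Homer1. With single arrays left out, values ran from -0.11 to 0.034 for Dlg1, -0.043 to 0.13 for Dlgap1, -0.0087 to 0.14 for Shank1, -0.053 to 0.050 for Homer1, -0.020 to 0.066 for Nlgn3, -0.092 to 0.20 for Nrxn2, -0.11 to 0.059 for Nrxn3, -0.13 to 0.040 for Gphn, -0.015 to 0.17 for Camk2a, -0.0048 to 0.10 for Camk2b and -0.058 to 0.026 for Grip1. Other probes of opposite sign gave 0.043 and 0.22 for Dlg1, 0.046 for Dlg2, -0.12 and -0.010 for Dlg4, -0.11 for Dlgap1, -0.17, -0.56 and -0.14 for Homer1, 0.24 for Homer2, -0.075 for Nlgn2, -0.039 and -0.31 for Nlgn3, 0.044, 0.14 and 0.21 for Nrxn3, 0.040 and 0.067 for Gphn, 0.10 and 0.34 for Lrrtm1, -0.14 and -0.038 for Camk2a, -0.0067 and -0.062 for Cacng2, 0.27 for Grip1, -0.047 for Pick1, 0.10 for Sipa1l1 and -0.22 for Baiap2. No paired analysis was possible because the 2 genotypes share no replicate number and the labels name no littermate pairs. Dim probes such as those of Shank1 and Dlgap2 bound little.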
